A study of Drosophila melanogaster with 2 samples.

Results

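The genes described here encode the protein subunits of the mitochondrial ribosome of Drosophila melanogaster. They were taken as all protein-coding genes whose symbol begins with mRpL (large subunit) or mRpS (small subunit). This gave 73 of 13945 protein-coding genes on the chromosome arms, 47 named for the large and 26 for the small subunit. The subunit was taken from the symbol alone. Each was set against the regions called in a chromatin immunoprecipitation sequencing (ChIP-seq) experiment on bsh-GFP in whole embryos. The embryos carried, in a transgenic line, the homeodomain factor bsh (brain-specific homeobox) with GFP joined to its C-terminal end, were pooled from both sexes, and were 0 to 24 h old. Chromatin was sonicated to 200 to 800 bp and precipitated with an antibody against GFP. There was 1 group of 2 biological replicates, with no second genotype or condition, and a control experiment was not analysed here. Because the samples were whole embryos, a region in few cells and a weak region in many cells cannot be told apart.

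Mitochondria keep their own ribosomes, which translate the few proteins encoded in the mitochondrial genome, all of them subunits of the respiratory chain or of ATP synthase. The ribosomal RNAs come from the mitochondrial genome, whereas every ribosomal protein is encoded in the nucleus, made in the cytosol and imported. Some of these proteins descend from bacterial ribosomal proteins and others are found only in mitochondrial ribosomes. The genes are active in nearly all cells, whereas bsh is best known for specifying neurons of the visual system.

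The data were lists of regions rather than reads, and sequencing depth is therefore unknown. The main list held 4447 regions, each with a summit (its highest point) and a signal. It was deposited as thresholded on the irreproducible discovery rate (IDR, how well ranks match between replicates). The signal is the authors' own value and ran from 119.6 to 2129.8 with a median of 182.7. The 4447 were the strongest regions of a relaxed list of 30000 made from both replicates pooled, and some of them ranked past 4447 in a single replicate. Ranks below count from 1 at the strongest region of a list, and signal is comparable within a list only.

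The sequences under the summits are shown first for 6 genes, to let the strongest regions, a shared promoter of middling signal, the weakest region of the large subunit and a region found in both replicates but not in the pooled list (mRpS10, replicate 1 summit) be read side by side. Each line gives the longest stretch within 100 bases of the summit that holds no annotated untranslated region (UTR), on the strand of the ribosomal protein gene, 5′ to 3′, in dm6 coordinates. Capitals mark any match, on either strand, to 9 words. These were TAATTA and CAATTA (homeodomain cores), ATCGAT (the DNA replication-related element), GAGAGA (the GAGA factor word), CACGTG (an E-box), CAGCTG (another E-box), GTCACACT (a core promoter word), TGCGCA (a palindrome) and TATAAA (the TATA box).
mRpS23 (chr2L:13835368-13835563, minus strand): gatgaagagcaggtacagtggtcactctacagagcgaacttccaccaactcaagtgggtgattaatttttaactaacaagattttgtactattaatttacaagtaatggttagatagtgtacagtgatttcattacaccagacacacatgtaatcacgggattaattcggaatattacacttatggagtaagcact
mRpL23 (chr3L:2373502-2373596, minus strand): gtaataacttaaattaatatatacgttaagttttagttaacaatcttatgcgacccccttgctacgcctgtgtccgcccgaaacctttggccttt
mRpL2 (chr3L:11120422-11120609, plus strand): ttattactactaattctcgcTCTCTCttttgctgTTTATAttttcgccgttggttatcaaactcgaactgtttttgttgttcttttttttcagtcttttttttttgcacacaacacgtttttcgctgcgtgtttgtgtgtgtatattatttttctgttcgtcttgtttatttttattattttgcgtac
mRpS2 (chr2L:4850484-4850640, minus strand): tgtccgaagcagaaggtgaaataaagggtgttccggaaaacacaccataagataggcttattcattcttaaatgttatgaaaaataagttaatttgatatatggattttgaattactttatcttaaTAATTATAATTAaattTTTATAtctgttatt
mRpL44 (chr3R:5470773-5470925, minus strand): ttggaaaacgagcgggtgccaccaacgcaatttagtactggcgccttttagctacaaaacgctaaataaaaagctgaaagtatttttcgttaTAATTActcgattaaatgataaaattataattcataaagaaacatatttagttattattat
mRpS10 (chr3R:15229431-15229631, plus strand): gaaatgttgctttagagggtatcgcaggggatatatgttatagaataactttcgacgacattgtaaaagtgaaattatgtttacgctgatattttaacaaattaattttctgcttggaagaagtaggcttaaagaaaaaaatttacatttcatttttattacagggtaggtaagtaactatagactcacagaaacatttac
The printed stretches of mRpS23, mRpL23 and mRpS10 held none of the 9 words. Those of mRpS2 and mRpL44 held TAATTA, a core of many homeodomain sites, with 2 adjoining matches and a TATAAA in mRpS2, and that of mRpL2 held GAGAGA and TATAAA. With the bases that are not printed, the whole window of mRpL23 also held TATAAA and that of mRpS2 also held CAGCTG. Counts over summit windows given further on are of whole windows.

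A summit lay in the gene or within 2 kb of it for 20 of 73 mitochondrial ribosomal protein genes, or 27.4%, beside 24.9% of all protein-coding genes. The share was 27.7% (13 of 47) in the large subunit and 26.9% (7 of 26) in the small one, as judged from the letter in the symbol. It was 31.8% (14 of 44) among proteins of a bacterial family, as judged from the number in the symbol, and 20.7% (6 of 29) among those specific to mitochondria. None of these shares was tested, because genes are not replicates, and all lay near the share of all genes.

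Few of the summits lay inside the ribosomal protein genes or nearest to their start sites. In the gene body a summit was found in 2 of 73 genes, or 2.74%, beside 11.6% of all genes. The median gene body was 909 bp long, beside 2166 bp for all genes, and these 2 shares were not matched for length. The gene's own start site was the nearest of all annotated start sites to a summit for 2 of 73 genes, again 2.74%, beside 17.2% of all genes. This rule set no limit on the distance. Within 500 bp of the gene's own start site there was a summit for 9 of 73 genes, or 12.3%, beside 12.1% of all genes. The 4 counts thus stand at or slightly above the level of all genes for closeness, and below it for the gene body and the nearest start.

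**Figure D1:**
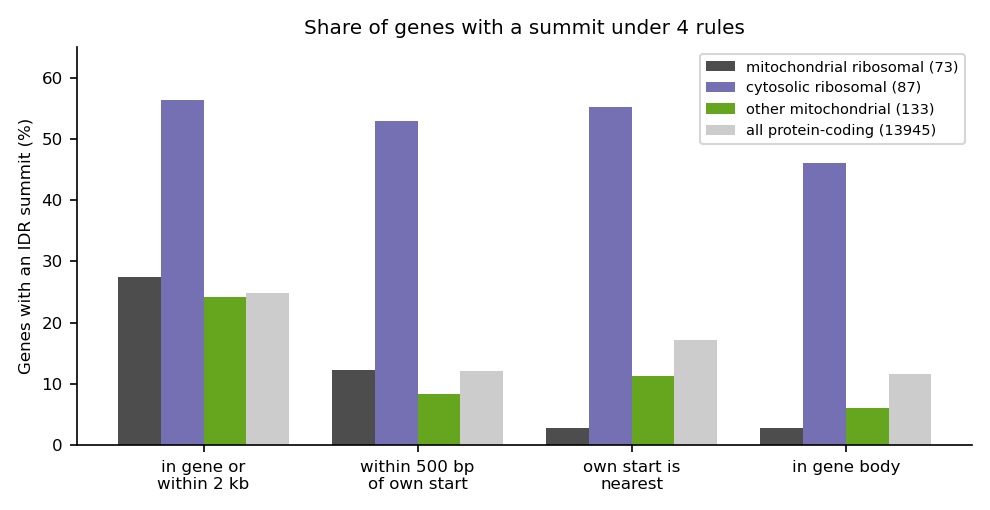
Percentage of genes (vertical axis) with an IDR summit under 4 rules (horizontal axis), for mitochondrial ribosomal protein genes, cytosolic ribosomal protein genes, the other mitochondrial genes and all protein-coding genes, with the number of genes in the legend. The mitochondrial ribosomal bars stand at 27.4% and 12.3% for closeness and at 2.74% for the nearest start and the gene body.

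The mitochondrial ribosomal protein genes are short, with a median length of 909 bp (390 to 13391 bp) beside 2166 bp for all genes, and 67 of 73 have 1 annotated start site. Among genes of at most 1000 bp, 12 of 42 (28.6%) had a summit by the 2 kb rule, beside 11.3% of all genes of that length. Between 1000 and 2000 bp the shares were 7 of 28 (25%) and 18%. Above 2000 bp they were 1 of 3 (33.3%) and 33.3%. Up to 2000 bp the shares were above those of all genes of the same length, and the difference was not tested.

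A divergent neighbour, a gene on the opposite strand whose 5′ end lies within 1000 bp upstream, was present for 56 of 73 mitochondrial ribosomal protein genes (76.7%), beside 33.3% of all genes. The median distance between the paired 5′ ends was 287.5 bp for these genes and 302 bp for all divergent genes. Of the 56 divergent genes, 16 (28.6%) had a summit by the 2 kb rule, beside 31.3% of all divergent genes. Of the 17 without such a neighbour, 4 (23.5%) had one, beside 21.7% of all genes of that arrangement. Set beside genes of the same arrangement, the shares by the 2 kb rule lay within 3 percentage points. The own start was nearest to a summit for 2 of the 56, beside 701 of 4648 divergent genes. Without such a neighbour it was nearest for 0 of 17, beside 1696 of 9297.

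The 20 genes had 22 pairs of gene and region, with 22 distinct regions, of which 2 summits were inside the gene, 13 upstream and 7 downstream. In 20 of the 22 the nearest start site belonged to another gene, at a median of 119 bp from the summit. In these 20, set apart because another start was closer, the ribosomal protein gene's own start was at a median of 956 bp. Over all 22 pairs the own start was at a median of 678.5 bp. The other gene's start was within 500 bp in 19 of these 20 and within 200 bp in 18. In 11 of the 13 upstream pairs the nearest start was that of the divergent neighbour. The exceptions were mRpL41, nearest to its own start, and mRpL12, nearest to that of GNBP3. Most of the 22 summits thus lay closer to the start of another gene. The 2 kb rule takes in start sites of adjoining genes, and the same share was not counted over the gene and region pairs of all genes.

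**Figure D2:**
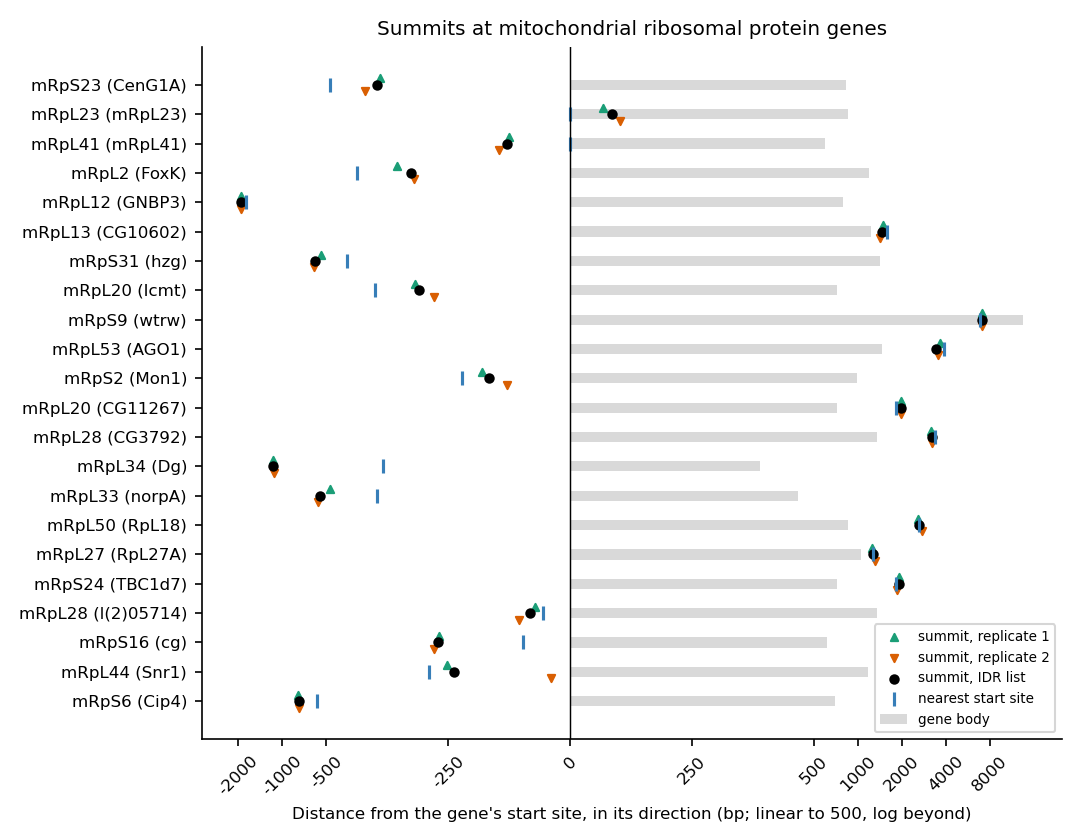
Position of each summit relative to the start site of the mitochondrial ribosomal protein gene, in the gene's direction (bp, linear to 500 and logarithmic beyond), with the gene nearest to the summit in brackets, ordered by signal from the top. Black circles are IDR summits, triangles the matching summits of replicates 1 and 2, blue bars the nearest start site and grey bars the gene, and in 20 of 22 rows the blue bar belongs to another gene.

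The pattern at divergent promoters can be read within 500 bp of the start alone. Of the 9 mitochondrial ribosomal protein genes with a divergent neighbour and a summit within 500 bp of their start, 2 (22.2%) had their own start nearest to a summit. Among the cytosolic ribosomal protein genes this held for 32 of 32, and among all divergent genes for 498 of 729 (68.3%). The closest IDR summit to the start site of the genes with a summit by the 2 kb rule lay at a median of 572 bp for mitochondrial ribosomal protein genes, 34 bp for cytosolic ones and 543 bp for all genes.

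Around the 5′ ends, the density of summits was 5.48 per 100 mitochondrial ribosomal protein genes in the 250 bp just upstream, beside 4.28 per 100 genes overall. From 500 to 250 bp upstream it was 5.48 per 100, beside 2.02. In the first 250 bp downstream it was 1.37 per 100, beside 2.83. The 73 genes give few summits per bin, 4, 4 and 1 in these 3 bins.

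**Figure D3:**
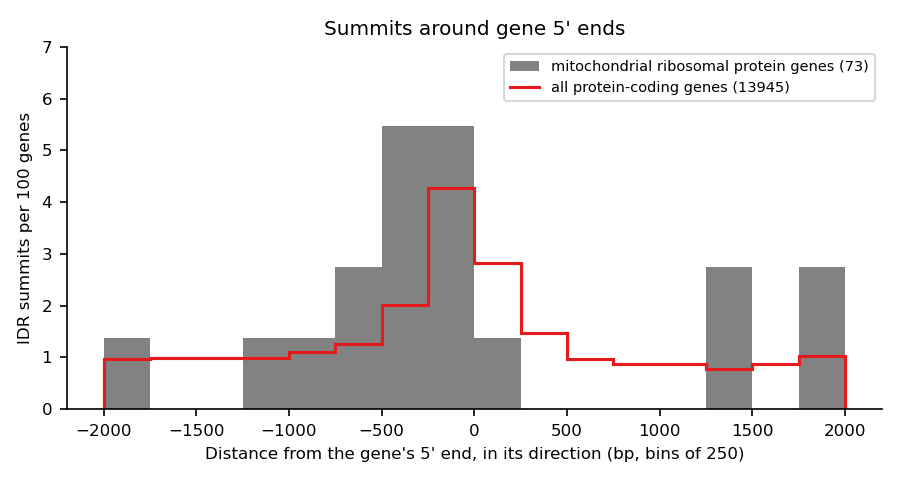
IDR summits per 100 genes (vertical axis) in bins of 250 bp by distance from the 5′ end in the gene's direction (horizontal axis), for mitochondrial ribosomal protein genes (grey) and all protein-coding genes (red line). The grey bars reach 5.48 in both bins between 500 bp upstream and the 5′ end, where the red line is at 2.02 and 4.28.

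The strongest region was at mRpS23, a small subunit protein specific to mitochondria (FBgn0260407, chr2L:13834250-13835072, minus strand). Its region, chr2L:13835306-13835660, had a signal of 1092.8 and ranked 24 of 4447, with 552.1 (rank 35) in replicate 1 and 546.4 (rank 13) in replicate 2. The summit lay between genes, 396 bp upstream of the mRpS23 start and 96 bp upstream of that of CenG1A, a GTPase-activating protein of the centaurin family on the plus strand, whose 5′ end is 492 bp from that of mRpS23. The replicate summits were within 24 bp of the IDR summit. Both replicates thus placed a top-ranked region in this shared promoter, closer to CenG1A.

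The own start was nearest in mRpL23 and mRpL41. mRpL23, a large subunit protein that in bacteria lines the rim of the peptide exit tunnel (FBgn0035335, chr3L:2372844-2373704, minus strand), had a signal of 601.2 (rank 180), with 358.9 (rank 158) in replicate 1 and 243.2 (rank 225) in replicate 2. The summit lay in an intron of mRpL23, 86 bp downstream of its nearest start site, and the 5′ end of CG9004 on the other strand is 24 bp from that of mRpL23. mRpL41, a large subunit protein specific to mitochondria (FBgn0034001, chr2R:15217024-15217617, minus strand), had a signal of 584.4 (rank 192), with 298.2 (rank 269) in replicate 1 and 284.0 (rank 146) in replicate 2. Its summit was 129 bp upstream of the start, between mRpL41 and CG8079, whose 5′ ends are 762 bp apart. The regions of both genes were among the strongest 300 in each replicate.

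mRpL2, which helps form the peptidyl transferase centre in bacteria (FBgn0036135, chr3L:11120847-11122041, plus strand), had the fourth signal, 509.2 (rank 284), with 298.0 (rank 271) in replicate 1 and 212.2 (rank 323) in replicate 2. The summit was 325 bp upstream of mRpL2 and in an intron of FoxK, a forkhead transcription factor gene, 111 bp upstream of a FoxK start site. With mRpS23, mRpL23 and mRpL41 it accounted for the 4 regions among the 500 strongest of the list.

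Of the other proteins of bacterial families in the large subunit, mRpL12, a counterpart of the bacterial stalk protein that engages translation factors, had a signal of 373.6 (rank 572), with 193.1 (rank 744) in replicate 1 and 175.2 (rank 496) in replicate 2. That summit was 1907 bp upstream of mRpL12 and 137 bp from the start of GNBP3, an immune receptor for fungal glucans. mRpL13 had 333.9 (rank 750), with 175.2 (rank 897) in replicate 1 and 164.7 (rank 579) in replicate 2, at a summit 236 bp past its end and 113 bp from the start of CG10602. In neither case was the gene's own start within 1 kb of the summit.

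mRpL20 had 2 regions. The first, 310 bp upstream of its start and 89 bp from that of Icmt, a protein carboxyl methyltransferase, had a signal of 271.1 (rank 1139), with 124.8 (rank 1660) in replicate 1 and 146.8 (rank 748) in replicate 2. The second, 1253 bp past the gene and 154 bp from the start of CG11267, had 230.2 (rank 1502), with 117.1 (rank 1846) in replicate 1 and 109.5 (rank 1379) in replicate 2. mRpL28 also had 2 regions, and they differed more in strength. The one 1871 bp past the gene and 125 bp from the start of CG3792 had a signal of 219.3 (rank 1640), with 138.7 (rank 1394) in replicate 1 and 75.1 (rank 2789) in replicate 2. The one in the promoter shared with its divergent neighbour, 81 bp upstream of mRpL28 and 26 bp from the neighbour's start, had 137.1 (rank 3612), with 68.5 (rank 4620) in replicate 1 and 51.5 (rank 5364) in replicate 2. In each replicate taken alone, the region of the shared promoter ranked past 4447.

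The remaining large subunit proteins of bacterial families had weaker regions. mRpL34, the shortest of all the genes at 390 bp, had a signal of 204.4 (rank 1829) at a summit in an intron of Dg, the dystroglycan gene, 1148 bp upstream of mRpL34. mRpL33 on chromosome X had 191.4 (rank 2049) at a summit in the 5′ UTR of norpA, a phospholipase C of phototransduction, 551 bp upstream. mRpL27 had 169.7 (rank 2527) at a summit 262 bp past its end and 11 bp from the start of RpL27A, a cytosolic ribosomal protein gene. Replicate ranks for these 3 ran from 1463 to 3561.

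Among large subunit proteins specific to mitochondria, mRpL53 had a signal of 265.3 (rank 1183), with 175.1 (rank 898) in replicate 1 and 107.3 (rank 1448) in replicate 2. Its summit lay in an intron of AGO1, the Argonaute of microRNAs, 1935 bp past the end of mRpL53, and the matching replicate summits were 225 and 105 bp farther on, outside the 2 kb window. mRpL50 had 178.3 (rank 2318), with 106.8 (rank 2180) in replicate 1 and 73.6 (rank 2889) in replicate 2, at a summit 1748 bp past its end and 13 bp from the start of RpL18, another cytosolic ribosomal protein gene. mRpL44, which carries a ribonuclease III-like fold, had 124.6 (rank 4201), with 88.1 (rank 3034) in replicate 1 and 36.6 (rank 9341) in replicate 2. Its summit was 237 bp upstream of mRpL44 and 53 bp from the start of Snr1, a subunit of the Brahma chromatin remodeller. The matching replicate 2 summit was shifted by -198 bp, toward mRpL44, whose own start was then closer than that of Snr1. The mRpL44 region was thus far weaker by rank in replicate 2.

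In the small subunit, mRpS31, specific to mitochondria, had a signal of 313.7 (rank 849), with 169.6 (rank 948) in replicate 1 and 152.5 (rank 686) in replicate 2, at a summit in the 5′ UTR of hzg, 593 bp upstream of mRpS31. mRpS9, of a bacterial family and the longest gene at 13391 bp, was the other gene with a summit inside it, with 266.7 (rank 1173), 109.7 (rank 2078) in replicate 1 and 147.8 (rank 731) in replicate 2. That summit was 7025 bp from the mRpS9 start and 180 bp from that of wtrw, a TRP channel gene nested in an mRpS9 intron. mRpS2 had 234.7 (rank 1458), with 144.2 (rank 1300) in replicate 1 and 94.0 (rank 1803) in replicate 2, between mRpS2 (165 bp) and Mon1 (57 bp), a factor of endosome maturation. Each of these summits was again closer to the other gene.

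The 3 weakest genes of the small subunit were near the end of the list. mRpS24 had a signal of 141.5 (rank 3409) at a summit 93 bp from the start of TBC1d7. mRpS16 had 126.5 (rank 4094), with 77.2 (rank 3765) in replicate 1 and 46.1 (rank 6455) in replicate 2, in the 5′ UTR of cg (combgap), a zinc finger gene. mRpS6 had 123.3 (rank 4252), with 48.3 (rank 8068) in replicate 1 and 81.3 (rank 2404) in replicate 2, in a coding exon of Cip4, an F-BAR protein gene. The replicates placed the mRpS16 and mRpS6 regions on opposite sides of rank 4447.

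**Figure D4:**
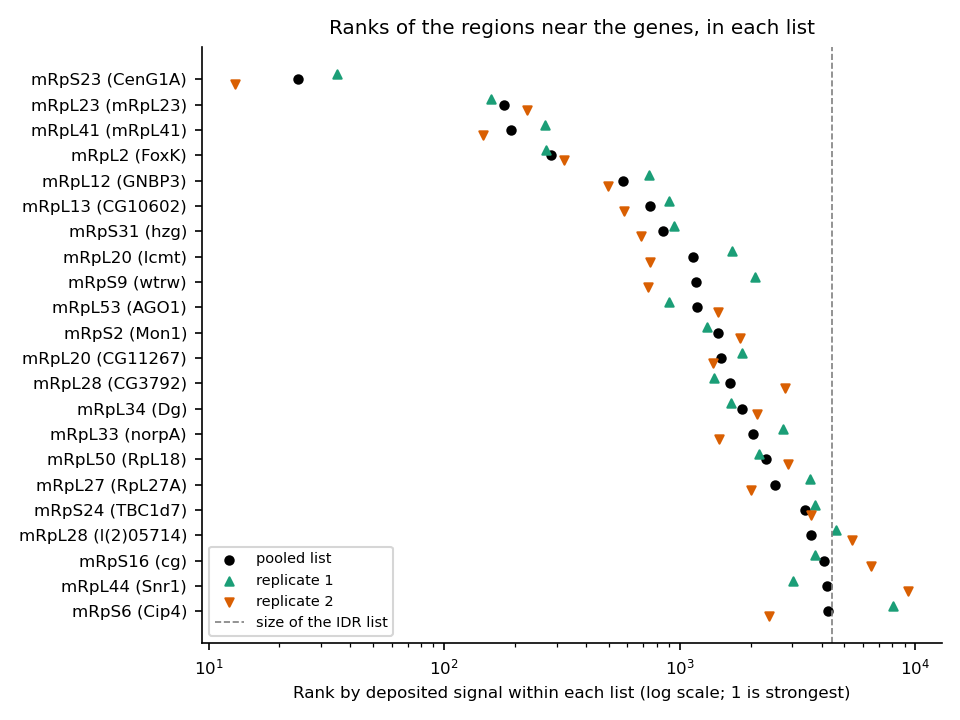
Rank of each of the 22 regions by deposited signal (horizontal axis, log scale, 1 is strongest) in the pooled list (circles), replicate 1 (upward triangles) and replicate 2 (downward triangles), with the gene nearest to the summit in brackets. The dashed line is at 4447, the size of the IDR list, and triangles to its right, from mRpL28, mRpS16, mRpL44 and mRpS6, are regions that a single replicate ranked lower than that.

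All 22 regions overlapped a region of each replicate by at least 1 bp. The median rank was 1480 in the pooled list, 1653 in replicate 1 and 1455.5 in replicate 2. The rank was within 4447 for 20 of the 22 in replicate 1 and for 19 in replicate 2. Summits moved by a median of 17 bp in replicate 1 and 18.5 bp in replicate 2, by at most 60 bp in 21 and 18 of the 22. Another gene's start remained closer than the ribosomal protein gene's own in 20 of 22 matched summits of replicate 1 and in 19 of 22 of replicate 2. The median signal of the 22 regions was 232.4, beside 182.7 for the whole list, and 15 of the 22 were among the 2223 strongest regions.

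Taking the 4447 strongest regions of 1 replicate in place of the IDR list gave similar counts. In replicate 1, 24 of 73 genes (32.9%) had a summit by the 2 kb rule, beside 24.7% of all genes. In replicate 2 it was 22 of 73 (30.1%), beside 26.0% of all genes. The 18 genes found in both were 75.0% of those of replicate 1 and 81.8% of those of replicate 2. All 20 genes of the IDR list were found in replicate 1, mRpL53 and mRpS6 there through other regions, of rank 1143 and 4068. In replicate 2, 17 were found, and mRpL44, mRpL53 and mRpS16 were not.

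One gene outside the 20 was strong in both replicates. mRpS10, of the small subunit (chr3R:15229665-15230516, plus strand), had a signal of 361.1 (rank 152) in replicate 1 and of 306.8 (rank 103) in replicate 2. The replicate 1 summit was 134 bp upstream of mRpS10 and 123 bp from the start of Art3, an arginine methyltransferase gene. The replicate 2 summit was 162 bp and 95 bp away. In the pooled list there was no region within 2 kb, and the nearest pooled summit was 3931 bp away. Of the 3362 strong regions of replicate 1 that overlapped one of replicate 2, 9 (0.268%) overlapped no pooled region, and that at mRpS10 ranked best among them and was the one near a mitochondrial ribosomal protein gene. How it came to be missing from the pooled list was not tested.

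Some genes had a strong region in a single replicate. mRpL46 had a signal of 211.8 (rank 328) in replicate 2, at a summit 1894 bp upstream and 88 bp from the start of PolD2, and no region within 2 kb in replicate 1 or in the pooled list. mRpL24 had 125.0 (rank 1654) in replicate 1, 183 bp upstream and 35 bp from the start of betaggt-I, with none in replicate 2. mRpL40 had 89.1 (rank 2985) in replicate 1, 1997 bp from its start and 40 bp from that of mgr, with none in replicate 2. None of these 3 genes had a region within 2 kb in the pooled list.

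**Figure D5:**
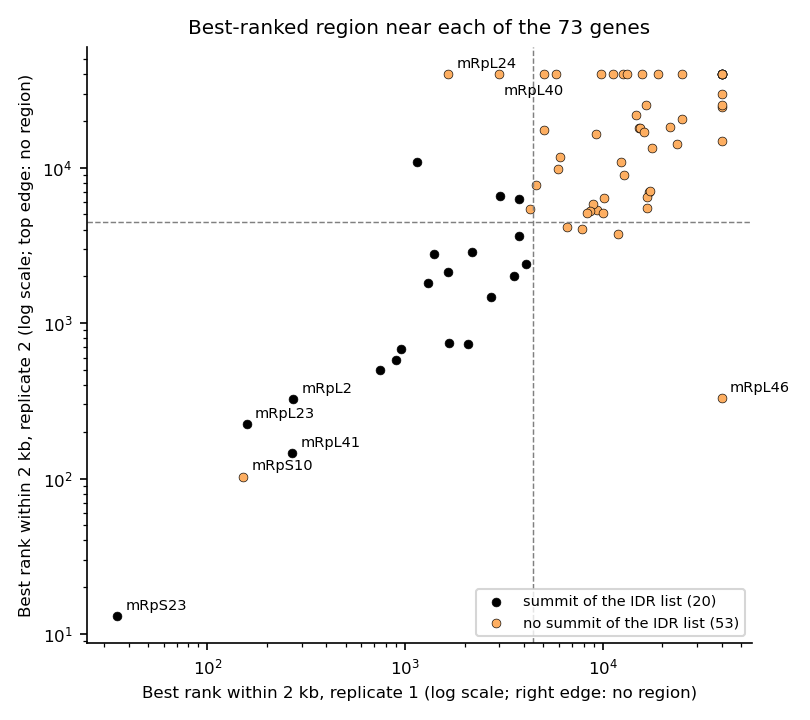
Best rank of any region with a summit in the gene or within 2 kb, in replicate 1 (horizontal axis) and replicate 2 (vertical axis), both on log scales with genes that had no region at the edge, for all 73 genes; black points had a summit of the IDR list. Dashed lines are at rank 4447, and mRpS10, at ranks 152 and 103, is the orange point inside both lines.

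Of the other 53 genes, 36 had a region of the relaxed pooled list within 2 kb, which brings the genes with any region to 56 of 73 (76.7%), beside 59.8% of all genes. In 12 of the 56 their own start was the nearest to the best region, and the same share over all genes was not counted. The 5 genes just below the IDR list were mRpL32 (rank 4498, signal 118.8), mRpL43 (rank 4703, 115.5), mRpS26 (rank 5309, 107.2), mRpL18 (rank 5382, 106.4) and mRpL35 (rank 6636, 93.4). For all 5 the nearest start was that of another gene, 646 bp away at mRpL32 (qless), 4 bp at mRpL43 (CG30183), 9 bp at mRpS26 (CG13698), 62 bp at mRpL18 (Taz) and 9 bp at mRpL35 (CG6028). The 6 genes mRpL30, mRpL45, mRpS17, mRpS18A, mRpS34 and mRpS35 had no region within 2 kb in any of the 3 relaxed lists.

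The genes with a summit were spread over the chromosome arms. On 3L it was 7 of 17 (41.2%, beside 25.2% of all genes on that arm), on 2L 5 of 12 (41.7%, beside 24.0%) and on 2R 4 of 12 (33.3%, beside 23.9%). On 3R it was 3 of 21 (14.3%, beside 24.2%) and on X 1 of 11 (9.09%, beside 28.3%). The numbers per arm are small, and the differences were not tested.

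Other genes of mitochondrial protein production and respiration were counted by the same rule. The 133 genes of the other mitochondrial lists had a summit by the 2 kb rule in 32 cases (24.1%), beside 24.9% of all genes. In the gene body it was 8 (6.02%, beside 11.6%), and the own start was nearest for 15 (11.3%, beside 17.2%). By list, the counts were 10 of 40 for respiratory complex I, 2 of 7 for complex II, 1 of 13 for complex III, 4 of 18 for complex IV, 6 of 17 for ATP synthase, 3 of 15 for mitochondrial aminoacyl-tRNA synthetases and 6 of 21 for mitochondrial gene expression factors. The small subunit proteins tko and bonsai, which belong to the same ribosome under other symbols, had none.

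The strongest region among these lists was at PNPase, a mitochondrial exoribonuclease, with a signal of 1470.2 (rank 8) 81 bp from its own start, above that of mRpS23. A region near bsf, which binds mitochondrial messenger RNAs, had 943.3, and that near mTerf5, a mitochondrial transcription factor, 313.3. In the respiratory chain, the highest were near SdhD (729.5) and SdhB (186.8) of complex II, COX7AL2 (666.6), COX7C (221.8) and COX5A (145.1) of complex IV, and ND-ASHI (526.2), ND-75 (276.9) and ND-15 (231.7) of complex I. Cyt-c1L of complex III had 133.1. The ATP synthase genes ATPsynC (320.8), blw (309.2) and ATPsyndelta (225.4) and the synthetase genes CysRS-m (360.0), SerRS-m (165.9) and ArgRS-m (138.9) completed the set. The own start was nearest to the summit for PNPase, COX7AL2, COX7C, ND-ASHI and Cyt-c1L. For all the others named here the nearest start was that of another gene, as at SdhD, 2364 bp from its own start and 103 bp from that of PTPMT1.

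The cytosolic ribosomal protein genes, which encode the ribosome of the cytoplasm, gave other counts under the same rules. A summit lay within 2 kb or in the gene for 49 of 87 (56.3%, beside 24.9% of all genes), and their own start was nearest for 48 (55.2%, beside 17.2%). In the gene body it was 40 (46.0%, beside 11.6%), and within 500 bp of the start 46 (52.9%, beside 12.1%). The highest signals were near RpS19b (705.7), RpL31 (410.8) and RpS4 (368.7), and at RpS4 the summit was 39 bp from the gene's own start. The summits near RpS19b and RpL31 were closest to the starts of CG5854 (499 bp) and CG1827 (141 bp). The count by nearest start was close to the count by the 2 kb rule in the cytosolic list (48 beside 49) and far from it in the mitochondrial one (2 beside 20), with no test of the difference. A divergent neighbour was present for 51 of 87 cytosolic genes (58.6%) and for 60 of the 133 other mitochondrial genes (45.1%).

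The promoters of the mitochondrial ribosomal protein genes had a word in common that the selection did not use. The palindrome CAGCTG, an E-box, was present in the 300 bases from 250 before to 50 after the 5′ end of 40 of 73 genes (54.8%), beside 17.7% of all promoters and 21.7% of those of divergent genes. Genes with and without an IDR summit had it alike, in 55.0% (11 of 20) and 54.7% (29 of 53). It was found in 37.5% of promoters of the divergent neighbours, 31.6% of those of the other mitochondrial genes and 8.05% of those of cytosolic ribosomal protein genes. The paired 5′ ends were a median of 287.5 bp apart, so windows of neighbours can overlap and the same site can count in both. Around the summits, within 100 bases each side, it was in 1 of 22 windows (4.55%), beside 7.51% of all IDR windows.

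The matches lay close to the 5′ end. Within 50 bases of it, a window chosen after seeing the data, were 36 of the 45 matches (80.0%), in 35 genes (47.9%), beside 49.7% of matches and 9.3% of genes over all promoters. The longer word CAGCTGTT, also chosen after seeing the data, was in 27 of 73 promoters (37.0%) on either strand, beside 7.61% of all promoters and 12% of those of divergent genes. Sites of the longer word in 5 genes with an IDR summit (mRpL2, mRpL23, mRpL28, mRpS2 and mRpS6) and 3 without one (mRpL11, mRpL46 and mRpS21) are shown on the gene's strand, 5′ to 3′, with CAGCTG in capitals and the TT of the longer word after it in lower case, so that the bases around it can be compared. The 8 were picked after their sequences were seen.
mRpL2 (chr3L:11120847-11120872, plus strand): cgccgcgtaaCAGCTGttttcagccg
mRpL23 (chr3L:2373717-2373742, minus strand): ggttgacaatCAGCTGtttaaaacaa
mRpL28 (chr2L:4973981-4974006, plus strand): cacatacgaaCAGCTGttttttccaa
mRpS2 (chr2L:4850415-4850440, minus strand): cactacccacCAGCTGtttaccaaaa
mRpS6 (chr3L:4364554-4364579, plus strand): ttccttgcatCAGCTGttaacactat
mRpL11 (chr3R:14511823-14511848, plus strand): gcaataccatCAGCTGttgctgcttc
mRpL46 (chr3L:1777427-1777452, plus strand): tgccgcaaatCAGCTGttccggctct
mRpS21 (chr3R:13381792-13381817, minus strand): tgatattcatCAGCTGtttagcagta
Of the 40 genes with CAGCTG, 27 had the longer word. CAGCTG began at 10, 15 and 14 bases past the 5′ end in mRpL2, mRpL28 and mRpS6, and at -28 and -11 in mRpL23 and mRpS2. No factor was measured at these sites, and a match describes the letters only.

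By their presence in the 300 bases, the other words were nearer the level of all promoters. ATCGAT, the core of the DNA replication-related element, was in 37.0% of the mitochondrial ribosomal promoters, beside 23.3% of all and 34.9% of divergent ones, and in none of the 22 summit windows, beside 4.45% of all IDR windows. TAATTA was in 20.5%, beside 20.4% of all promoters, and in 4 of 22 summit windows (18.2%), beside 13.6%. CAATTA was in 35.6%, beside 25.2%, and in 5 of 22 summit windows (22.7%), beside 15.9%. GTCACACT was in 11.0%, beside 6.62%, CACGTG in 6.85%, beside 4.2%, and TGCGCA in 8.22%, beside 6.96%. TATAAA, the TATA box, was in 46.6%, beside 45.8%, and GAGAGA, the GAGA factor word, in 6.85%, beside 12.3%. The promoters had a GC content of 36%, beside 39.1% for all genes, and the 22 summit windows one of 34.8%, beside 38.4%.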

How the data were processed

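The authors deposited region lists per replicate, for pooled reads and after IDR, per the file headers and records. Each region has a signal, a −log10 q-value and a summit offset, all the authors' own deposited values. The aligner, peak caller and IDR threshold were not given in the sources used here, and the lists hold no read numbers. Regions were ranked by deposited signal, because 7005 pooled regions share the highest deposited q-value (−log10). The IDR list was checked to be the 4447 strongest pooled regions, and as many were taken per replicate on chromosome arms.

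Genes and start sites came from Ensembl release 115, sequence from the RefSeq copy of assembly release 6, both in dm6 coordinates (1-based). Summits were assigned with Python 3.11.15, numpy 2.4.6, pandas 2.3.3 and matplotlib 3.10.9, tested on simulated data. The 2 samples form 1 group, so no test was made; counts stand beside those of all genes. Replicates were matched at 1 bp of overlap. Named genes were all with an IDR summit within 2 kb, the next 5 below the list and the 3 highest of each other list; mRpS10, mRpL46, mRpL24, mRpL40, mRpL11, mRpS21, mRpS14 and the genes with no region in any list were named after their values were seen. The genes and lists were chosen with earlier results of these data known.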

Additional observations from a re-analysis of the deposited data

How the results depend on the processing

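The number of mitochondrial ribosomal protein genes with a summit was 20 by the 2 kb rule, 2 by gene body, 9 within 500 bp of the start, 15 at 1 kb (20.5%, beside 20.4% of all genes), 29 at 5 kb (39.7%, beside 36.2%), 20 by any base of the region (27.4%, beside 25.6%), 14 with the 2223 strongest regions (19.2%, beside 15.1%), 27 with the 7005 regions of highest q-value (37.0%, beside 34.3%), and 22 to 24 with 1 replicate left out. For the other mitochondrial genes the 32 became 8 by gene body (6.02%, beside 11.6% of all genes) and 11 within 500 bp (8.27%, beside 12.1%). They became 52 at 5 kb (39.1%, beside 36.2%) and 17 with the strongest regions (12.8%, beside 15.1%). With either replicate left out they were 29 (21.8%), beside 24.7% of all genes without replicate 2 and 26.0% without replicate 1. For the cytosolic list the 49 became 25 with the strongest regions (28.7%, beside 15.1%). They were 50 without replicate 2 (57.5%, beside 24.7%) and 52 without replicate 1 (59.8%, beside 26.0%). Genes with the nearest start numbered 2, and 5 with gene 5′ ends in place of all transcript starts (mRpL13, mRpL23, mRpL41, mRpL45 and mRpS14), 4 at the highest q-value (mRpL23, mRpL41, mRpS26 and mRpS6), and 2 to 3 with a replicate left out. Shares of all genes under these alternatives for the nearest start were not counted. The fewer regions, or the smaller or larger window, changed the counts of this paragraph by construction. Of the 22 regions, 16 matched both replicates at 50% overlap and 21 by summits within 100 bp. No paired analysis was possible because there is 1 group. Depth is unknown, a control was not analysed here, and the spread at a single gene rests on 2 replicates.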
